A study of Danio rerio with 20 samples.

Results

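The proteasome genes of zebrafish embryos were described in RNA from whole embryos exposed to 1 of 3 small molecules aimed at hedgehog signalling. Members were all non-control probes of a gene expression array whose transcript maps to a zebrafish symbol starting psma, psmb, psmc, psmd, psme, psmf or psmg. Of the 59 reference symbols with these prefixes, 48 had a probe, 1 each, among the 14657 genes on the array. The other 11 (psma2b, psmb3, psmb5, psmb7, psmb10, psmb11b, psmd11a, psmd12, psme4a, psme4b and psmg4) were not analysed here. Of the 48 genes, 46 were measured well enough to be tested, in a set of 11433 tested genes.

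The 4 groups of 5 arrays each were compared, and each array held RNA from a separate pool of 100 embryos. Exposure ran from 0.5 to 24 hours post fertilisation. The control group received 0.1% ethanol. The others received 10 µM cyclopamine, a plant alkaloid that binds Smoothened, 10 µM SANT-2, a synthetic Smoothened antagonist, or 10 µM GANT-61, a synthetic inhibitor of the GLI transcription factors downstream of Smoothened. The labels give no strain or genotype for any group, and they give an ethanol percentage for the control group alone. All values come from pooled whole embryos, so fewer cells of a type and less RNA per cell cannot be told apart.

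The proteasome is the protease that removes ubiquitin-tagged proteins from the cytosol and nucleus of every eukaryotic cell. Its barrel-shaped core particle has outer rings of alpha subunits (psma genes) and inner rings of beta subunits (psmb genes), some of which cut proteins. A regulatory particle caps the barrel: its ATPases (psmc genes) unfold the substrate, and its other subunits (psmd genes) bind ubiquitin chains and take them off. Activators (psme genes) can replace that cap, psmf1 encodes a core-binding inhibitor, and psmg genes encode chaperones that assemble the core. In hedgehog signalling the proteasome also trims GLI proteins into repressor forms when the pathway is off.

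Each value below is a level on the log2 scale: the scanner's processed signal minus the 75th percentile of the same array. Levels are given as the mean ± SD over the 5 arrays of a group. Differences are given ± SE from a linear model fitted with limma to all 20 arrays, with 95% intervals, and p-values were adjusted by the Benjamini-Hochberg method over the 11433 tested genes. A gene was called changed at an adjusted p below 0.05. A probe's level was never set against that of another probe.

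The arrays came from 4 slides, of 6, 5, 5 and 4 arrays, and slide was the main division among them. In ethanol and cyclopamine, replicates 1 and 2 were on slide 1 and replicates 3, 4 and 5 on slides 2, 3 and 4. The slide and any batch of embryos that goes with the replicate number therefore cannot be told apart there. The number of probes well above background ranged from 10038 to 12610 per array. Slide 2 was dim: its arrays had 75th percentiles between 565 and 762, and arrays of the other slides had 1125 to 2060. The first principal component of all tested genes held 40.9% of the variance, and slide accounted for 90.2% of it. Each slide held all 4 groups, so every comparison was also fitted with slide as a block and read within each slide. Markers of 7 of 8 embryonic tissues were above background on all 20 arrays (16 of the 18 markers with a probe), and the lens marker cryaa was above it on 4.

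Proteasome transcripts were measured in nearly every sample. Of the 48 genes, 43 (89.6%) were well above background on all 20 arrays, against 63.3% of all genes. The exceptions were 4 beta subunits of the immune or thymus type, a type that in mammals replaces constitutive beta subunits in particular cells, and the alpha-type gene psma6l. Among these, psmb8a was above background on 0 of 20 arrays and psmb11a on 11 of 20 (3 ethanol, 2 cyclopamine, 3 SANT-2 and 3 GANT-61), so neither was tested. The gene psmb9a was above background on 16 arrays, psmb13a on 18 and psma6l on 14, while psmb12 was above it on all 20. In the reference gene order psmb13a, psmb8a, psmb12 and psmb9a lie next to each other with 0 genes between neighbours.

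Exposure left no proteasome transcript past the threshold of the unblocked test. Against ethanol, limma called 0 of 46 genes for cyclopamine, where 0.875% of all tested genes were called. It called 0 of 46 for SANT-2 (0.0% of all genes) and 0 of 46 for GANT-61 (0.157% of all genes). At an unadjusted p below 0.05 the counts were also 0 of 46 for each compound, against 5.36%, 1.12% and 6.29% of all genes respectively. In no gene were all 5 arrays of a compound above or below all 5 ethanol arrays, a separation seen in 1.84%, 0.122% and 1.53% of all tested genes.

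The differences from ethanol were small, and their intervals show which sizes these arrays allow. The median over the 46 genes was 0.02 under cyclopamine, 0.07 under SANT-2 and 0.08 under GANT-61, beside 0.03, 0.04 and 0.05 over all tested genes. The slide-blocked medians were 0.02, 0.02 and 0.11. SANT-2 had 2 arrays on slide 2, where most of these genes were highest, and the other groups had 1. GANT-61 had 2 arrays on slide 3 (replicates 3 and 4), where these genes tended to be lowest, and the other groups had 1. The 95% interval lay wholly within 1 log2 unit of 0 for 45, 45 and 43 of the 46 genes, so a shift of 1 log2 unit lay outside it for these. It lay within 0.5 log2 units for 28, 26 and 22 genes. With slide as a block the same counts at 0.5 log2 units were 41, 40 and 39.

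**Figure D1:**
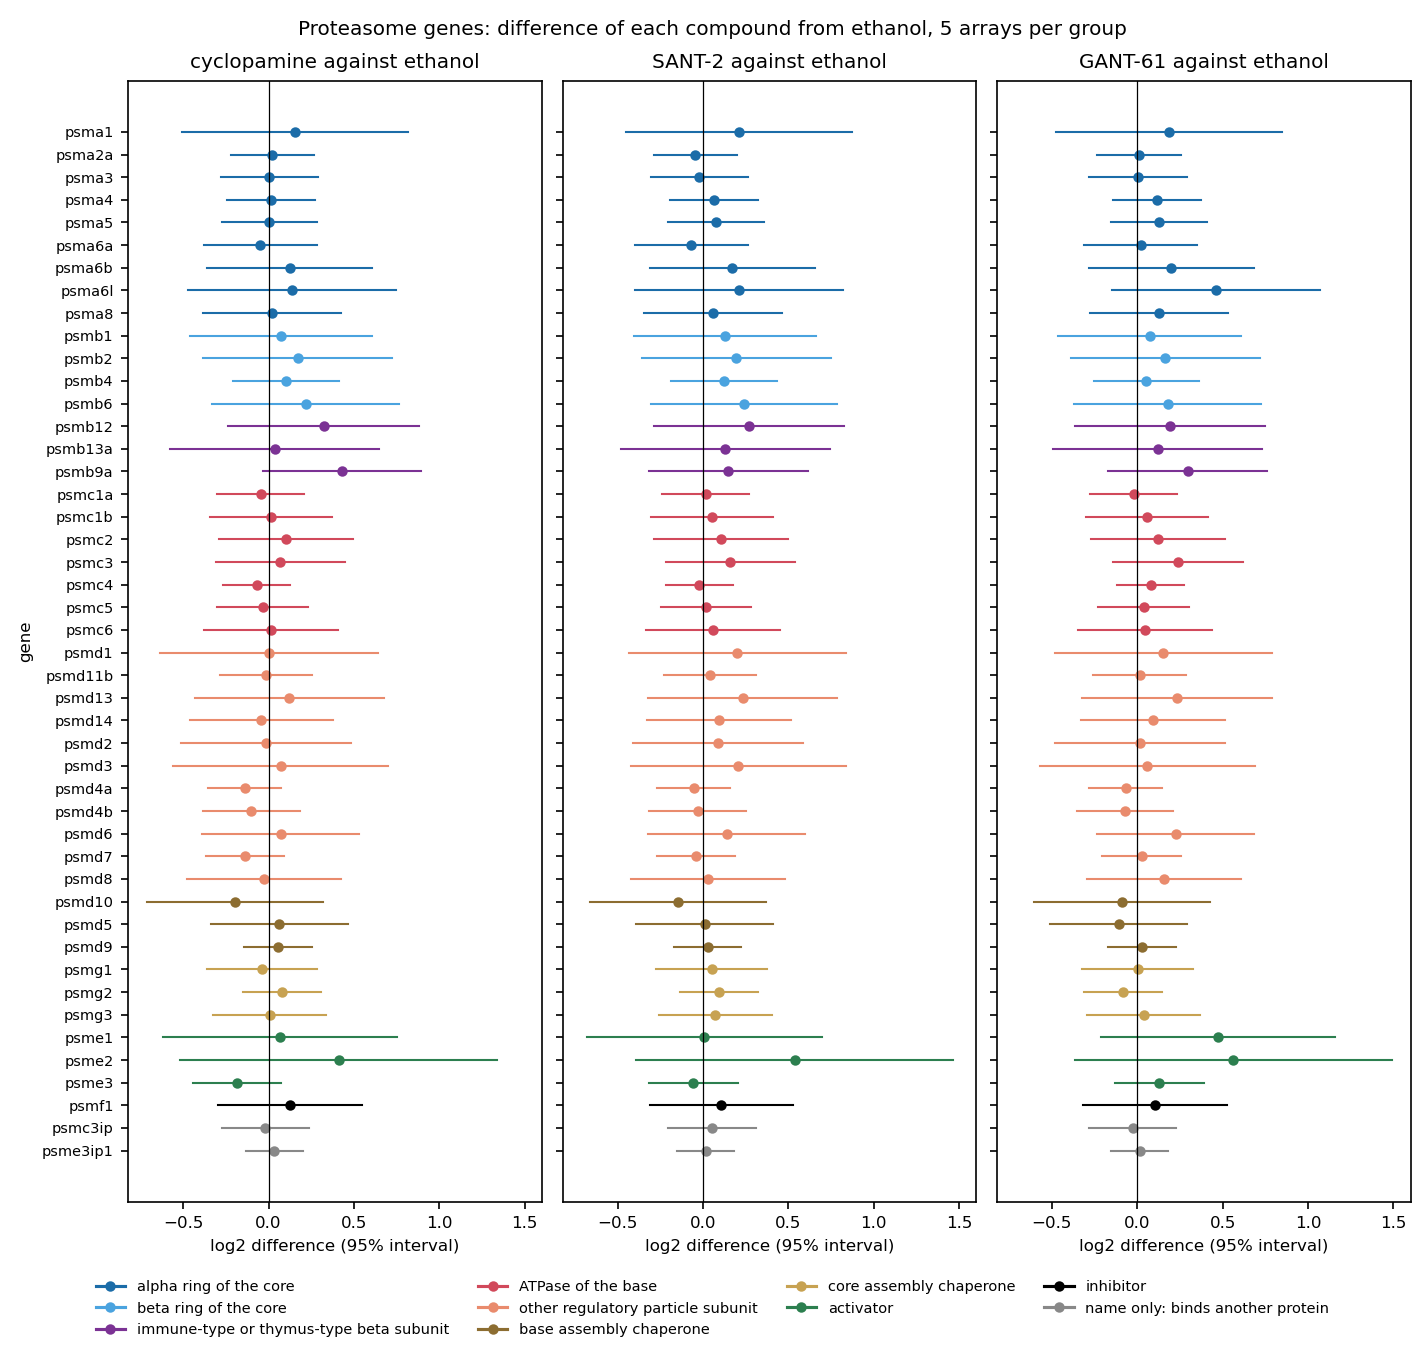
Log2 difference of each compound from ethanol for the 46 tested proteasome genes, ordered and coloured by role; points are the differences and lines their 95% intervals, from 5 arrays per group. All 3 panels share 1 horizontal scale and the same ethanol arrays, and every interval crosses 0; psme2 has the widest.

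A far larger share of the variation of these genes lay between slides than between groups. Slide accounted for a median 72.5% of a proteasome gene's variance and group for 3.83%, beside 54.3% and 11.0% over all tested genes. Each share was computed for a single factor, and a factor without effect also takes some share. A larger slide share leaves less for group, so 3.83% beside 11.0% does not compare sizes of exposure effects. The slide share exceeded 50% in 33 of 46 genes (71.7%), beside 56.3% of all tested genes. It was highest for psmb1, a beta ring subunit, whose mean levels on slides 1 to 4 were 4.67, 5.41, 4.48 and 4.60. It was lowest, at 19.6%, for psmd11b, a scaffold subunit of the regulatory particle. Both were picked after their values were seen.

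**Figure D2:**
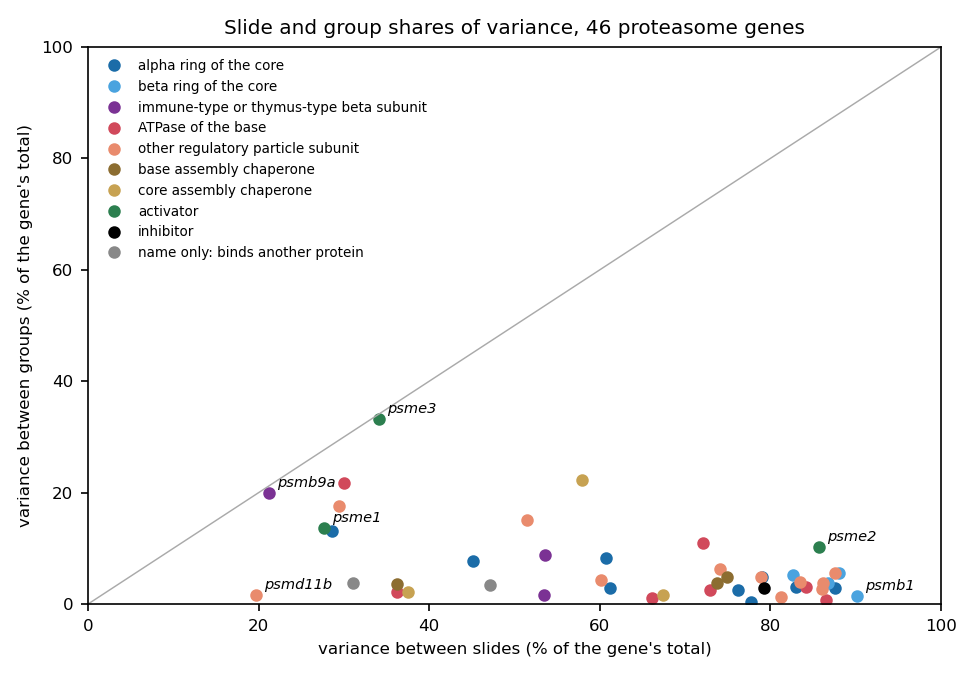
Share of each proteasome gene's variance between slides (horizontal, %) and between groups (vertical, %) over 20 arrays; each point is 1 of 46 genes, coloured by role, and the line marks equal shares. Every point lies below the line, and psme3, at 34.1% and 33.3%, lies closest to it.

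The medians of the core and regulatory particle genes moved with the slide in the same direction, though not every gene did. The 13 core genes were those of the alpha ring, psma6l among them, and of the constitutive beta ring. Their median deviation from each gene's 20-array mean averaged -0.04, 0.36, -0.28 and -0.12 on slides 1 to 4. For the 18 ATPase and other regulatory particle genes it averaged -0.05, 0.32, -0.22 and -0.05. Slide 2, the dimmest, had the highest mean for 32 of the 46 genes, and 5180 of the 11433 tested genes were highest there. Whether slide brightness has a part in this pattern was not tested.

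**Figure D3:**
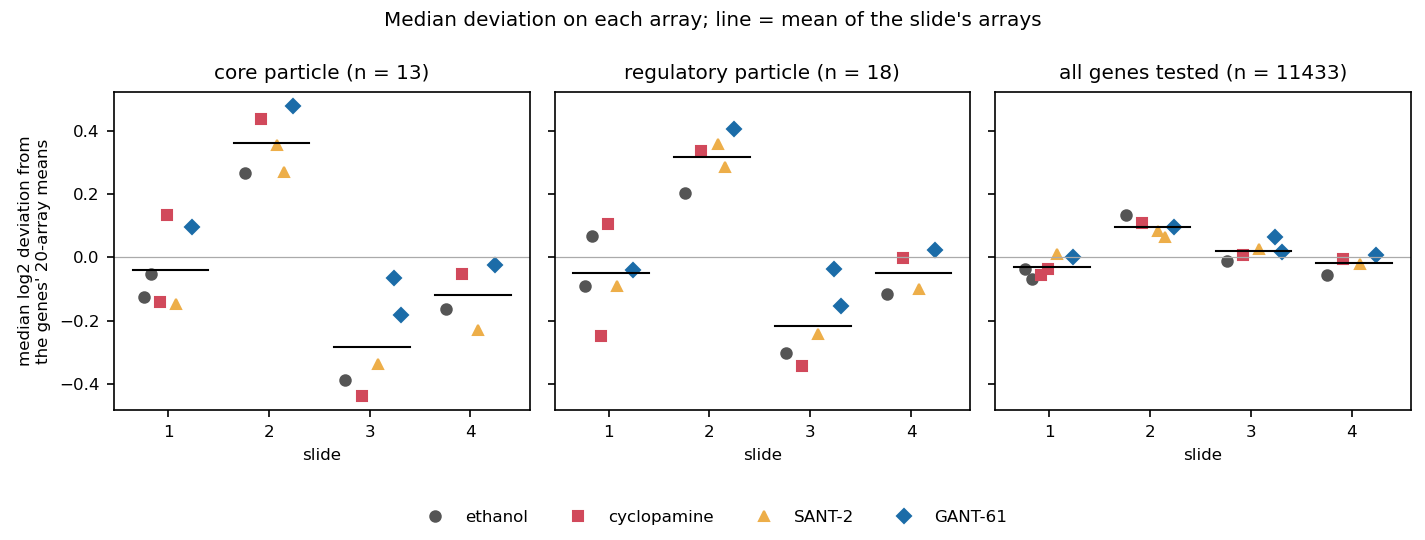
Median log2 deviation on each of the 20 arrays from the genes' 20-array means, by slide, for 13 core particle genes, 18 regulatory particle genes and all 11433 tested genes; symbols mark groups and black lines slide means. Slide 2 is highest and slide 3 lowest in the first 2 panels, with slide means of 0.36 and -0.28 for the core particle.

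The alpha ring genes, which form the gated outer rings of the core, showed no called difference. Of 9 tested genes, 8 had a higher mean than ethanol under cyclopamine, 6 under SANT-2 and 9 under GANT-61. The shares over all tested genes were 57.0%, 60.0% and 60.1%. Medians of the class were 0.02, 0.07 and 0.13, and 0.02, 0.01 and 0.16 with slide as a block. Under median scaling the GANT-61 share of all 46 proteasome genes above ethanol fell from 84.8% to 47.8%. The largest alpha ring difference was that of psma6l, whose 5 ethanol levels were -6.15, -5.63, -5.26, -5.91 and -5.30. Its 5 GANT-61 levels were -5.13, -4.96, -5.14, -5.39 and -5.33, a narrower band: 3 of the 5 lay above the highest ethanol array and the other 2 within the ethanol range. The difference was 0.46 ± 0.29 (interval -0.15 to 1.07, adjusted p = 0.83), and 3 ethanol and 4 GANT-61 arrays were above background. The gene was tested only because 4 cyclopamine and 4 GANT-61 arrays were above background, so its place among the 9 depends on those groups. For psma5, another alpha subunit, the mean was 4.40 ± 0.20 in ethanol and 4.52 ± 0.20 in GANT-61.

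All 4 tested constitutive beta ring genes had higher means than ethanol under each compound, beside 57.0%, 60.0% and 60.1% of all tested genes. Medians were 0.14 (cyclopamine), 0.16 (SANT-2) and 0.12 (GANT-61), and no gene was called. Scaling to each array's median shifts the GANT-61 differences by -0.0825, which turns the signs of psmb1 (0.07) and psmb4 (0.05). In the slide-blocked fit 3 of 4 were higher under SANT-2, with a median of 0.05. Of these, psmb6 encodes a catalytic subunit. Its ethanol levels were 4.20, 4.36, 5.02, 4.12 and 4.11, and its cyclopamine levels were 4.27, 4.66, 5.42, 4.12 and 4.41. In each group the array on slide 2 was the highest, and the groups overlapped throughout. The cyclopamine difference was 0.22 ± 0.26 without a block (adjusted p = 1.00) and 0.22 ± 0.09 with slide as a block (adjusted p = 0.247). For psmb4, a structural subunit of the beta ring, the differences were 0.11 ± 0.15, 0.12 ± 0.15 and 0.05 ± 0.15 in the order cyclopamine, SANT-2 and GANT-61.

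The 3 tested immune-type genes, psmb9a, psmb12 and psmb13a, had higher means than ethanol under every compound and no called difference. The shares of higher means over all tested genes were 57.0%, 60.0% and 60.1%. In mammals the psmb9 product is an interferon-induced catalytic subunit. The ethanol levels of psmb9a were -4.67, -5.21, -5.73, -5.04 and -5.02. Its cyclopamine levels were -4.60, -5.27, -4.87, -4.89 and -3.90. Replicate 5 was the highest cyclopamine array, and the remaining 4 lay within the ethanol range or just above it. The difference of 0.43 ± 0.22 was the largest of any proteasome gene under cyclopamine, with an interval of -0.03 to 0.90 and an adjusted p of 0.988. Within slides 1 to 4 it was 0.01, 0.86, 0.15 and 1.12, and only 4 ethanol and 3 cyclopamine arrays were above background. For psmb12 the cyclopamine difference was 0.32 ± 0.27, and for psmb13a it was 0.04 ± 0.29.

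The 7 ATPases of the regulatory particle base, which unfold substrates and open the core, lay close to the ethanol level. Their medians were 0.01, 0.05 and 0.06 under cyclopamine, SANT-2 and GANT-61, and the 95% intervals of all their differences lay between -0.38 and 0.62. With slide as a block the medians were 0.01, -0.02 and 0.10. Under SANT-2, 6 of the 7 were higher than ethanol without the block and 2 with it. The ethanol levels of psmc3 were 4.58, 4.64, 4.86, 4.35 and 4.49, and its GANT-61 levels were 4.79, 5.28, 4.65, 4.62 and 4.77. The groups overlapped, and the slide 2 array was the highest of each. The difference was 0.24 ± 0.18 without a block (adjusted p = 0.857) and 0.29 ± 0.09 with slide as a block (adjusted p = 0.0981). Within slides 1 to 4 it was 0.18, 0.42, 0.29 and 0.28. For psmc4 the mean was 4.32 ± 0.15 in ethanol, 4.26 ± 0.13 in cyclopamine, 4.30 ± 0.08 in SANT-2 and 4.40 ± 0.08 in GANT-61.

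The 11 other subunits of the regulatory particle had medians of -0.02, 0.09 and 0.06 under cyclopamine, SANT-2 and GANT-61. With slide as a block the medians were -0.02, 0.02 and 0.08. Under cyclopamine 4 were higher and 7 lower than ethanol. The smallest p-values of this class under cyclopamine belonged to psmd4a, a ubiquitin receptor, and psmd7, the non-catalytic partner of the psmd14 deubiquitinase. Their differences were -0.14 ± 0.10 and -0.14 ± 0.11, with intervals of -0.35 to 0.07 and -0.37 to 0.09. Base assembly chaperones guide the ATPases into a ring and leave the finished particle. Without a block, single genes of this class gave the lowest difference under each compound. The class medians were 0.06, 0.01 and -0.09 under cyclopamine, SANT-2 and GANT-61. The ethanol levels of psmd10 were 1.14, 0.93, 0.25, 0.90 and 1.28, and its cyclopamine levels were 0.81, 0.78, -0.04, 0.95 and 1.03. Replicate 3 was the lowest array in both groups, which overlapped. The difference of -0.20 ± 0.25 was the lowest under cyclopamine, and the SANT-2 difference of -0.14 ± 0.25 was the lowest under SANT-2. With slide as a block the lowest under SANT-2 was psma6a of the alpha ring (-0.09), and the lowest chaperone difference was -0.06. Under GANT-61, without a block, psmd5 was lowest, at -0.11 ± 0.19. The chaperone psmd9 differed by 0.06 ± 0.09, 0.03 ± 0.09 and 0.03 ± 0.09.

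Without a block, activator genes held the largest differences from ethanol under SANT-2 and GANT-61, though not under cyclopamine. With slide as a block they held the largest under GANT-61 (0.60) but not under SANT-2. There the highest activator difference was 0.18, below the 0.22 of an immune-type gene. In mammals psme1 and psme2 form a mixed, interferon-induced ring that opens the core, and psme3 forms a ring of its own in the nucleus. The ethanol levels of psme2 were -3.51, -3.43, -1.12, -2.44 and -2.60, and its GANT-61 levels were -2.55, -1.60, -1.95, -2.26 and -1.93. Both slide 1 arrays of ethanol were low and its slide 2 array was the highest of the 10, so the GANT-61 levels lay within the ethanol range. The difference was 0.56 ± 0.44 (interval -0.36 to 1.49, adjusted p = 0.857), the largest for GANT-61, and that for SANT-2 was 0.54 ± 0.44 (adjusted p = 1.00). Single ethanol arrays weighed on it: without replicate 3 the GANT-61 difference was 0.94 ± 0.40 (adjusted p = 0.38), without replicate 1 it was 0.34 and without replicate 2 it was 0.36. For GANT-61 against ethanol, the fit with arrays weighted by their quality called 1340 of the 11433 tested genes. In that fit the psme2 difference was 1.06 ± 0.30 and was called (adjusted p = 0.0292). Within slides 1 to 4 it was 0.92, -0.48, 0.34 and 0.68, and with slide as a block it was 0.41 ± 0.16 (adjusted p = 0.211).

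The psme1 levels were spread as widely within groups as between them. Ethanol arrays gave -2.29, -1.59, -2.15, -2.37 and -2.37, and GANT-61 arrays gave -1.53, -0.82, -2.11, -2.13 and -1.82. GANT-61 replicates 1 and 2 were above every ethanol array, and the other 3 lay inside the ethanol range. The difference was 0.47 ± 0.33 without a block (adjusted p = 0.838) and 0.60 ± 0.27 with slide as a block (adjusted p = 0.28). It was 0.07 ± 0.33 for cyclopamine and 0.01 ± 0.33 for SANT-2.

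The psme3 probe gave the only called difference of any proteasome gene in the fits with slide as a block. Its cyclopamine levels were 3.61, 3.76, 3.46, 3.20 and 3.81, and its GANT-61 levels were 4.05, 3.78, 3.88, 3.82 and 3.87. All but cyclopamine replicate 5 lay below the lowest GANT-61 array, so the groups overlapped by that array. Ethanol levels were 3.99, 3.87, 3.53, 3.50 and 3.86, and SANT-2 levels 3.80, 3.67, 3.61, 3.64 and 3.75. Both sat between the other groups in mean, at 3.75 ± 0.22 and 3.70 ± 0.08. Against GANT-61, cyclopamine differed by -0.31 ± 0.12 without a block (adjusted p = 0.385). With slide as a block the difference was -0.38 ± 0.08, a level 1.30-fold lower (interval -0.55 to -0.20, adjusted p = 0.0137). Within slides 1 to 4 the difference was -0.37, -0.32, -0.65 and -0.06, lower on 4 of 4 slides. Leaving out each of the 10 arrays in turn kept the call in 9 of 10 slide-blocked fits, and without cyclopamine replicate 4 it was lost (-0.30, adjusted p = 0.0857). With the replicate number as the block the difference was -0.31 ± 0.09 and was not called (adjusted p = 0.0608). Against ethanol, without a block, psme3 was not called for cyclopamine (-0.18 ± 0.12), SANT-2 (-0.06 ± 0.12) or GANT-61 (0.13 ± 0.12). With slide as a block its difference was -0.18 for cyclopamine and 0.19 for GANT-61, and it was called for no compound.

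**Figure D4:**
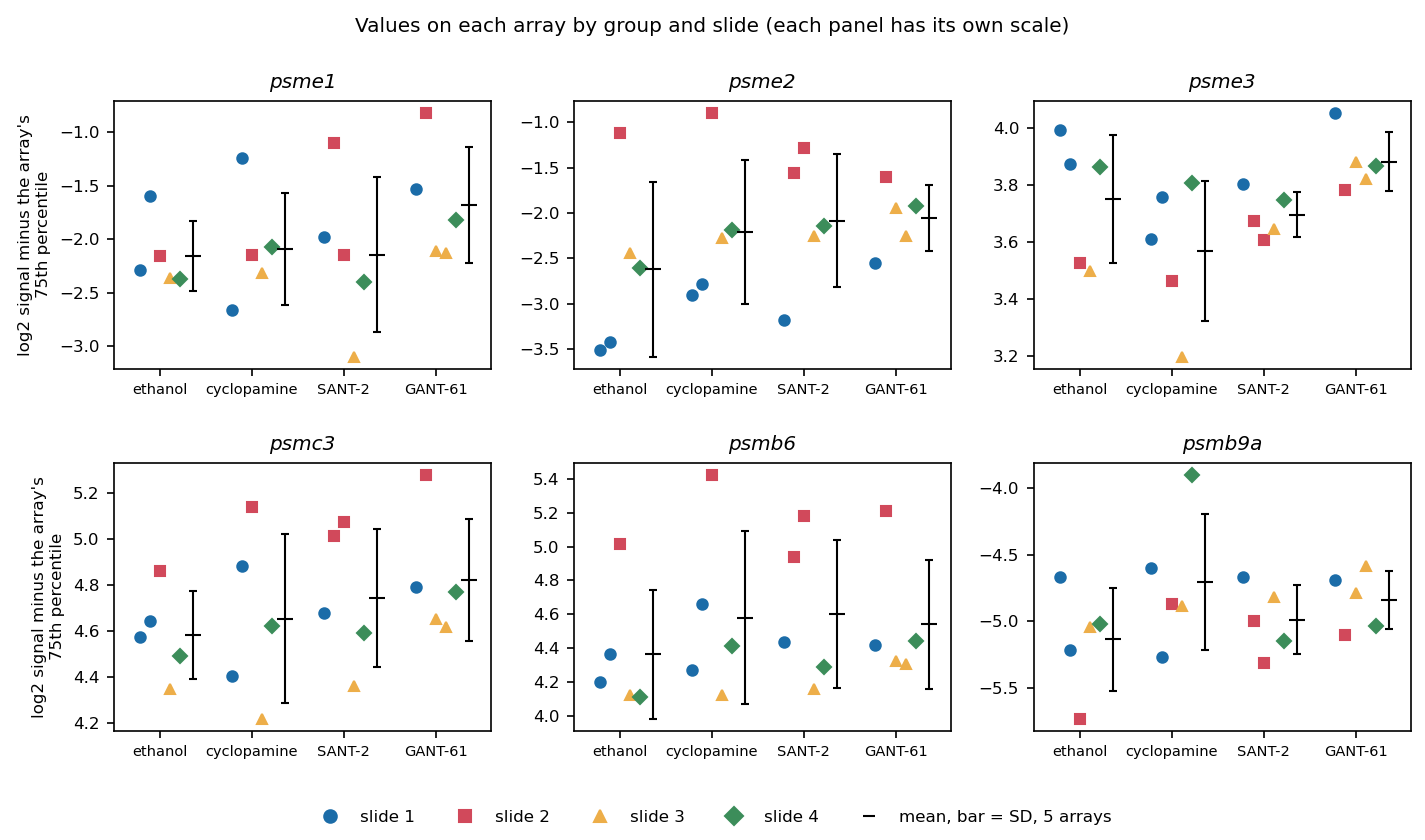
Log2 signal minus the array's 75th percentile on each array for the activators psme1, psme2 and psme3, the ATPase psmc3, the beta subunit psmb6 and the immune-type subunit psmb9a; colour and shape mark the slide, and black marks show mean and SD of 5 arrays. Slide 2 is highest in every group for psmc3 and psmb6, and for psme3 the GANT-61 mean of 3.88 is above the cyclopamine mean of 3.57.

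The inhibitor and the core assembly chaperones had no called difference. For psmf1 the means were 0.76 ± 0.29 in ethanol, 0.89 ± 0.30 in cyclopamine, 0.87 ± 0.39 in SANT-2 and 0.86 ± 0.31 in GANT-61. The partners psmg1 and psmg2 form a dimer that starts the alpha ring, and psmg3 acts in a further chaperone of that ring. All 9 of their differences from ethanol lay between -0.08 and 0.09. The 95% intervals of these ran from -0.36 to 0.40, so shifts of up to that size are not shown to be absent. Among the members, 2 share only the name: psmc3ip takes part in meiotic recombination and psme3ip1 encodes a nuclear protein that binds the psme3 product. Their differences from ethanol lay between -0.03 and 0.05.

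The compounds were also compared with each other at the shared 10 µM dose over 3 pairs, with limma's p-values adjusted over all genes within each pair. Without a block, 0 of 46 genes were called between cyclopamine and SANT-2 (0.752% of all genes), cyclopamine and GANT-61 (1.83%), or SANT-2 and GANT-61 (0.262%). Unadjusted p-values below 0.05 numbered 0, 1 and 0 of 46, beside 3.69%, 8.92% and 3.74% of all genes, and the 1 gene was psme3. Medians over the 46 genes were -0.05, -0.04 and 0.00, beside -0.02, -0.04 and -0.01 over all tested genes. With slide as a block the list medians were 0.03, -0.07 and -0.12, beside 0.01, -0.03 and -0.04 over all genes. The sign turned for cyclopamine against SANT-2, in the list and over all genes. Between SANT-2 and GANT-61, 23 genes were higher and 23 lower without the block, and 8 were higher and 38 lower with it. Of all tested genes, 46.4% were higher without the block and 42.1% with it. The 95% interval lay within 0.5 log2 units of 0 for 27, 23 and 27 genes, and for the rest the interval also held larger differences.

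With slide as a block the counts of called genes stayed low. Against ethanol 0 of 46 were called under cyclopamine (2.17% of all genes), SANT-2 (0.0%) and GANT-61 (1.71%). Cyclopamine gave 0 calls against SANT-2 (1.54%) and 1 call against GANT-61 (5.36%), and SANT-2 gave 0 calls against GANT-61 (0.988%). The single call, psme3, is a smaller share of the 46 genes than the 5.36% of all genes. Unadjusted p-values below 0.05 were found for 3, 0 and 10 of 46 genes against ethanol in the same order, beside 15.2%, 3.48% and 17.0% of all genes. For the pairs of compounds they were found for 1, 4 and 6 genes, beside 8.36%, 19.3% and 12.3%. The 10 genes under GANT-61 make 21.7% of the 46, close to the share of all genes.

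The list as a whole was described by its counts and medians, with no test of the list, and the comparisons with ethanol share the ethanol arrays. Without a block 31, 37 and 39 of the 46 genes had a mean above ethanol under cyclopamine, SANT-2 and GANT-61, beside 57.0%, 60.0% and 60.1% of all tested genes. With slide as a block the counts were 31, 27 and 40, beside 56.9%, 58.8% and 59.8%. For GANT-61 the list median exceeded the median of all genes by 0.02 without a block and by 0.06 with slide as a block. Scaling to each array's median shifts all genes of an array alike, so the excess of 0.02 under it is no separate result. Under quantile normalisation the list median was -0.0038 and that of all genes -0.0088, and in the authors' deposited table they were -0.0178 and -0.0134. Shares above ethanol under median scaling, quantile normalisation and in the deposited table were 47.8%, 45.7% and 39.1% of the 46 genes, beside 44.3%, 48.2% and 47.2% of all genes.

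Other genes of the pathway were read from a list of 34 proteasome partners, of which 19 had a probe and 18 were tested. Limma called 0 of 18 against ethanol under each compound, with or without slide as a block, beside the shares of all genes given above. At an unadjusted p below 0.05 the counts were 0 of 18 without the block. With it they were 2 under cyclopamine (ubc and ubqln4), 0 under SANT-2 and 2 under GANT-61 (ubc and rad23b, a shuttle factor gene named after its value was seen), beside 15.2%, 3.48% and 17.0% of all genes. The medians were 0.01, 0.01 and 0.01 for cyclopamine, SANT-2 and GANT-61. The polyubiquitin gene ubc differed from ethanol by 0.27 ± 0.23, 0.30 ± 0.23 and 0.34 ± 0.25, the last over 4 GANT-61 arrays because the spot of replicate 4 was an outlier. The shuttle factor gene ubqln4 differed by -0.33 ± 0.21 under cyclopamine. Under GANT-61 zfand2a, a stress-induced proteasome-binding gene, and txnl1, a proteasome-associated thioredoxin-like gene, differed by -0.19 ± 0.12 and -0.19 ± 0.13. None of these 4 passed the threshold.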

How the data were processed

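All 20 arrays, in 1 colour, were read from the deposited scanner files (per the file headers, written by version 10.1.1.1 of Agilent Feature Extraction). RNA was extracted with Trizol and labelled with Cy3, per the labels' protocols. The deposited intensity used is the processed signal, which per the file headers is background-subtracted by the scanner software. The authors' deposited table holds normalised log2 values of the same arrays, per the series' design text. Its medians were 7.18 to 7.21 per array, and its normalisation step is not given in the sources used here.

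Control and outlier spots were left out, spots of a probe were averaged, and log2 signals were reduced by each array's 75th percentile. Tested genes were well above background on at least 4 of 5 arrays of at least 1 group, and the brightest probe stood for a gene. Of 14694 probes, 9185 were matched to a symbol through reference tables, used for names and gene order only. Models were fitted with limma 3.58.1 in R 4.3.3 over all 20 arrays. Only the unblocked fit of cyclopamine against ethanol was tried on simulated data, which held no slide effect. The fits with slide as a block were not tried in this way.

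Named genes were those called with or without slide as a block, the 2 smallest p-values per role class, the extremes per compound, and all tested immune-type, activator, inhibitor and core chaperone genes, plus 4 partners. The members, lists and rules were chosen with earlier results of these data known. Labels call the 5 replicates independent.

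Replicate numbers were checked as pairs: the lowest correlation of same-numbered arrays' deviations from their group means was, for cyclopamine, 0.46 with ethanol, 0.26 with SANT-2 and 0.21 with GANT-61. Between SANT-2 and GANT-61 it was 0.14. All exceeded 0.1, so the numbers were taken as pairs there. For ethanol the lowest was -0.01 with SANT-2 and -0.04 with GANT-61, and they were not. Pairing comes from these values alone, and 3 to 5 of the 5 pairs per comparison shared a slide, so pairing and slide cannot be told apart. Cyclopamine was paired with ethanol and with SANT-2 while ethanol was not paired with SANT-2, so the rule does not define a common batch. The main fit used no pairs. No 2 arrays were identical. Alternatives were normexp (offset 50, on median signals), quantile and cyclic loess normalisation, median scaling, the deposited table, filters, blocks, array weights, and left-out arrays. The number of arrays limits precision.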

Additional observations from a re-analysis of the deposited data

Results flagged for a closer look

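Single arrays stood apart from the other 4 of their group in 7 of the 92 gene and group combinations examined (23 named genes in 4 groups), where the gap to the nearest array divided by the group's range exceeded 0.71. Chance flags about 1 in 20 groups. On slide 2 these were psmb6 in ethanol replicate 3 (level 5.02 on the log2 scale), psmb6 in GANT-61 replicate 2 (5.21), psmc3 in GANT-61 replicate 2 (5.28) and psmd10 in cyclopamine replicate 3 (-0.0401). On slide 3 they were psmd4a in ethanol replicate 4 (3.69) and psme3ip1 in GANT-61 replicate 4 (2.62). On slide 1 it was psme1 in ethanol replicate 2 (-1.59).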

How the results depend on the processing

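The count of called proteasome genes was 0 in every comparison under the main setting and stayed 0 when any 1 array was left out without a block. It became 1 in GANT-61 against ethanol with array weights (psme2), where 1340 of the 11433 tested genes were called. It became 1 in cyclopamine against GANT-61 with slide as a block, and also with quantile normalisation together with the slide block, an alternative chosen after seeing the data (psme3, -0.33, adjusted p = 0.0183). Leaving out arrays in the slide-blocked fit, also chosen after seeing the data, gave 0 to 1 called genes. The replicate block left 0 called proteasome genes in all 6 comparisons. It stands for pairing only in the comparisons where the replicate numbers were taken as pairs. The medians over the list ranged from -0.0344 to 0.0349 for cyclopamine, -0.0242 to 0.0736 for SANT-2 and -0.0178 to 0.1096 for GANT-61 against ethanol over the other alternatives, and from -0.0436 to 0.1042, 0.0049 to 0.1271 and -0.0045 to 0.1444 with single arrays left out. Between compounds, over the other alternatives, they ranged from -0.0532 to 0.029 (cyclopamine, SANT-2), -0.0727 to 0.0272 (cyclopamine, GANT-61) and -0.1169 to 0.0248 (SANT-2, GANT-61). Counts over all tested genes moved more: against ethanol 100 for cyclopamine became 53 to 287, 0 for SANT-2 became 0 to 3, and 18 for GANT-61 became 1 to 1340 (1340 with array weights, and 11 to 31 with 1 array left out). Between compounds 86 for cyclopamine and SANT-2 became 35 to 204, 209 (cyclopamine, GANT-61) became 103 to 646, and 30 (SANT-2, GANT-61) became 18 to 129. The cause was not tested. Of 1716 values of the named genes against ethanol under alternatives, 1 crossed the threshold (psme2, above), and 156 turned sign without being called.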
